A study of Mus musculus with 14 samples.

Results

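The genes described here are 32 that make up the protein-folding machinery of the endoplasmic reticulum (ER) and the unfolded protein response. They were picked by symbol from the 57180 genes of a count table of mouse liver RNA. Each of the 32 symbols matched 1 row, and all 32 were among the 16201 genes that passed the low-count filter. RNA of whole liver was sequenced from 14 littermate mice on normal chow, 1 numbered mouse per library. The groups were the Pkd1 genotypes Homo (4 libraries), Het (4 libraries) and WT (6 libraries), and the labels of all 3 groups also carry Cre. Pkd1 encodes polycystin 1, the membrane protein altered in most autosomal dominant polycystic kidney disease. The labels give no Pkd1 allele, Cre driver, sex, age, litter or collection time, so neither the altered cells nor the nature of the change can be read from them. The p-values measure the spread between these mice.

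About the libraries as a whole, estimated counts summed to 18573739 to 28431875 per Homo library, 22833853 to 26245475 per Het library and 25238140 to 40925973 per WT library. CPM values are counts divided by the TMM-scaled library size, and they are not adjusted for gene length and were compared only between libraries. Pkd1 was at 23.1 to 26.4 CPM in Homo livers, 28.1 to 36.7 CPM in Het livers and 31.4 to 37.7 CPM in WT livers, with a Homo over WT fold of 0.728 (edgeR adjusted p = 0.0246). Summed CPM of 10 hepatocyte markers (Alb, Apoa1, Hnf4a and others, all detected) was 60273 to 88928 in Homo, 63052 to 74572 in Het and 64419 to 81975 in WT. Pkd1 lies on chromosome 17, and none of the 32 genes does.

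Secreted and membrane proteins enter the ER through the Sec61 channel and fold with the help of chaperones, of which the Hsp70 protein BiP (Hspa5) is the central one, and of disulfide isomerases. Proteins that fail to fold are drawn back out and degraded. When unfolded proteins build up, BiP leaves the sensors IRE1 (Ern1), PERK (Eif2ak3) and ATF6 (Atf6). IRE1 then splices Xbp1 mRNA into the form that encodes an active transcription factor, ATF6 is cut to release another, and PERK slows translation and raises ATF4. Hepatocytes secrete most plasma proteins and carry abundant rough ER. Counts per gene do not show the splicing of Xbp1, the cleavage of ATF6 or the phosphorylation of PERK, so the values below concern RNA levels only. In whole liver, fewer cells of a type and less RNA per cell cannot be told apart.

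ATF6 and spliced XBP1 act with NF-Y at the ER stress response element, ERSE, and at the related ERSE-II. Promoter windows from 250 bases before to 50 bases after the transcription start (RefSeq, GRCm38.p6) were found for 25 of the 32 genes. The ERSE letters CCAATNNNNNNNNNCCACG were searched on both strands and lay in 9 of the 25, or 36.0%, against 39 of all 32851 windows, or 0.119%. Those 9 were Hspa5, Creld2, Hsp90b1, Dnajc3, Calr, Canx, Pdia6, Syvn1 and Derl3. The ERSE-II letters ATTGGNCCACG lay in Herpud1 alone of the 25, against 0.0365% of all windows. Members were counted by gene and the background by window, so the shares are in unlike units and only describe the list. A match describes the letters and shows no binding. Below are 4 ERSE promoters, of the genes with the smallest p in Het against WT that hold one, and that of Herpud1. All are 5′ to 3′ on the gene's strand, with the fixed letters of each match in capitals. Where capitals read CGTGG before ATTGG, the element lies on the opposite strand.
Hspa5 (chr2:34771840-34772139, plus strand): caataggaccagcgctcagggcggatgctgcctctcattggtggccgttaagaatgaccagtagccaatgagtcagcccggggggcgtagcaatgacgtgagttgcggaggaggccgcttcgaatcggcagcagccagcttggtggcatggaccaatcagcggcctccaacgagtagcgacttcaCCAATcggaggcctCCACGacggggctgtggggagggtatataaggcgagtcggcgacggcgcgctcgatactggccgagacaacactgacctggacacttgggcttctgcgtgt
Creld2 (chr15:88819396-88819695, plus strand): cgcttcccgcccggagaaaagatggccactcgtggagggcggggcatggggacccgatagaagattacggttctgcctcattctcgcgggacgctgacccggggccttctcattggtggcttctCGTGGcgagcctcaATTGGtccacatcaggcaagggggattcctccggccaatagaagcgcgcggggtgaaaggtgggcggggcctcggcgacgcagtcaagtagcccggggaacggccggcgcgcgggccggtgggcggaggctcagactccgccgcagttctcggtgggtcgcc
Syvn1 (chr19:6046326-6046625, plus strand): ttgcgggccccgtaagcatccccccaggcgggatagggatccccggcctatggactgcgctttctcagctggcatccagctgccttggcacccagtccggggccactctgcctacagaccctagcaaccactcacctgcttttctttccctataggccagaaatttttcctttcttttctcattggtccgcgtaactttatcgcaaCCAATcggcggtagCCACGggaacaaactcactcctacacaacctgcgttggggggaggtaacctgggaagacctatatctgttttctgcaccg
Hsp90b1 (chr10:86705395-86705694, minus strand): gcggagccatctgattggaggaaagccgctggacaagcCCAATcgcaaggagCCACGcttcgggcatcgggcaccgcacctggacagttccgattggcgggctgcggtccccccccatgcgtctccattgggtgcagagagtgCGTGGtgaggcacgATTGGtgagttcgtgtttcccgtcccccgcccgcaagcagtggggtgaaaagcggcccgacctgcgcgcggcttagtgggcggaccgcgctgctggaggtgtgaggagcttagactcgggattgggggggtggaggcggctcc
Herpud1 (chr8:94386179-94386478, plus strand): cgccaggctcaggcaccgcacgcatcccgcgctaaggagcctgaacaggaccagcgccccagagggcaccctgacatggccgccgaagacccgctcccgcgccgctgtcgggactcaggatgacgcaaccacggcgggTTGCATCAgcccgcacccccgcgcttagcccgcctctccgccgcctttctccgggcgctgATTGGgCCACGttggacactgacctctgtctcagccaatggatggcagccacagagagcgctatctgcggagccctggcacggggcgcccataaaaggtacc
The ERSE of Hspa5 lies at -65 to -47 from the start, that of Creld2 at -126 to -108 and that of Syvn1 at -44 to -26. Hsp90b1 has 2, at -212 to -194 and -107 to -89. In Herpud1 the ERSE-II at -52 to -42 is preceded at -112 to -105 by TTGCATCA, the amino acid response element at which ATF4 acts, here searched on both strands and found in 0.895% of all windows. The short core TGACGTGG, which spliced XBP1 prefers, was in none of the 25, against 0.676% of all windows.

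No member passed the adjusted threshold of 0.05 in any of the 3 genotype comparisons. The count was 0 of 32 in Homo against WT, where edgeR called 0.222% of all genes tested. It was 0 of 32 in Het against WT (0.0556% of all genes) and 0 of 32 in Homo against Het (0.0309%). DESeq2 called none of the 32 either, the nearest being Hspa5 in Het against WT (DESeq2 adjusted p = 0.0584). Folds were below 1 for 23 of 32 members in Homo against WT (49.4% of all genes) and for 30 of 32 in Het against WT (50% of all genes), Canx and Pdia5 being the exceptions in Het. At an unadjusted edgeR p under 0.05, 9 of 32 members (28.1%) were below WT in Het, against 2.31% of all genes, and none was above, against 2.36%. In Homo, 2 of 32 (6.25%) were below WT at that threshold, against 2.09% of all genes, and none was above, against 2.64%. The members were chosen with earlier results of these data known, so these shares describe the list and do not test it. All 9 in Het belong to the chaperone and degradation branches, and both in Homo, Hspa5 and Creld2, are chaperone genes that are also among the 9. In Homo against WT no member had all its Homo livers on one side of the WT range, a pattern found for 0.42% of all genes below WT and 0.735% above.

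**Figure D1:**
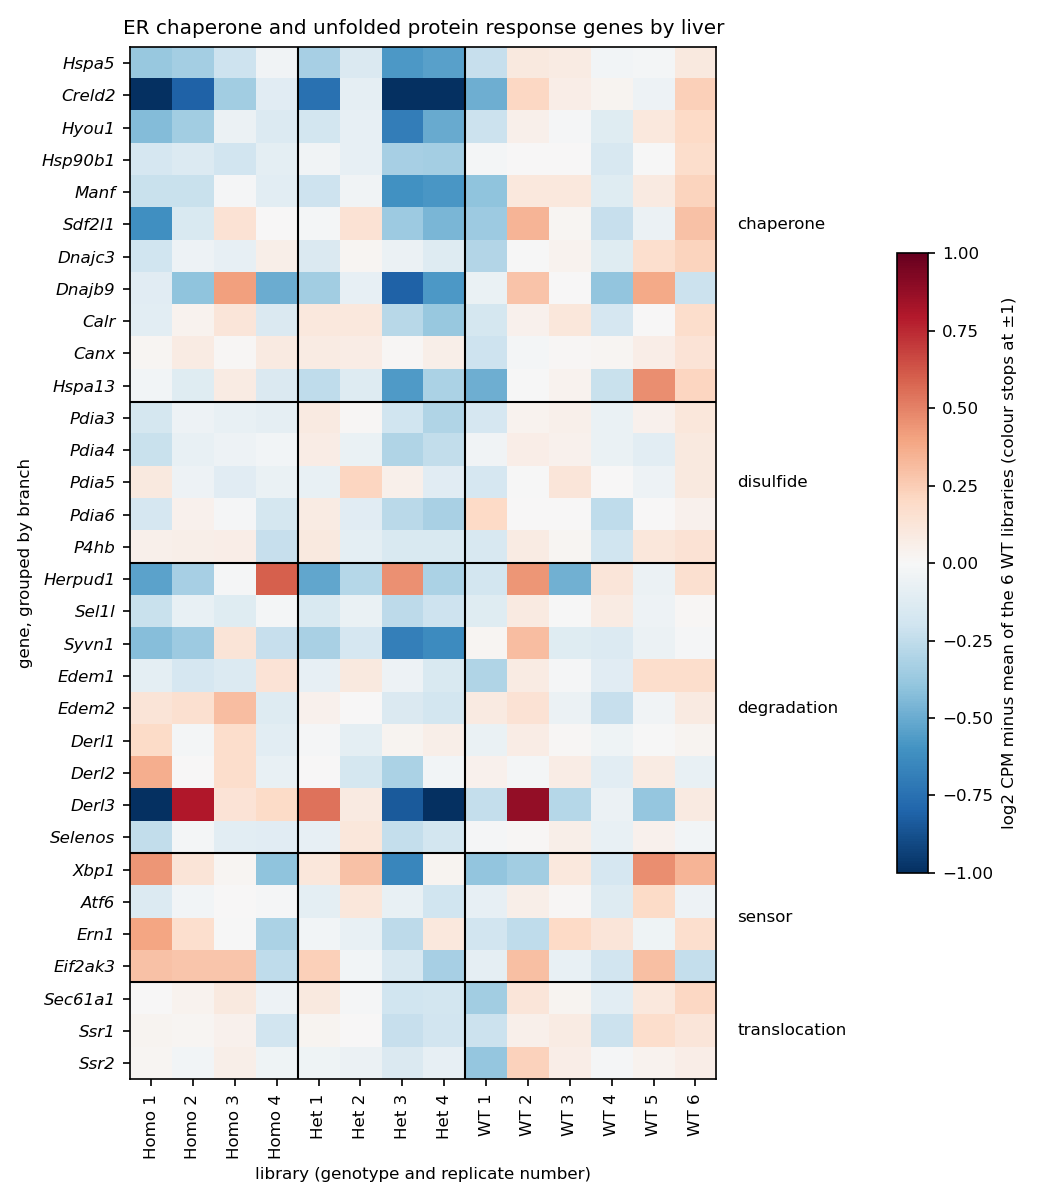
Each row is 1 of the 32 genes grouped by branch, each column 1 liver, and the colour is log2 CPM minus the mean of the 6 WT livers, from blue (below) to red (above), with the scale stopping at 1 in each direction. The chaperone rows are bluest in Het 3 and Het 4, where the branch medians are -0.57 and -0.46.

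The chaperone branch (11 genes) had the largest median differences from WT of the 5 branches in both Homo and Het. In Het against WT, 10 of 11 folds lay below 1 around a median of -0.34 on the log2 scale, and 7 genes had an unadjusted p under 0.05. That median was -0.16 in a fit restricted to the 12 livers numbered 1 to 4. In Homo against WT, 10 of 11 were again below 1, with a median of -0.15 and 2 genes at an unadjusted p under 0.05. The Homo median was -0.09 in the restricted fit and -0.09 without WT 2. The median over all genes tested was -0.0001 in Het against WT and 0.0022 in Homo against WT. Canx, the membrane lectin chaperone calnexin, was the exception in both, with log2 fold changes of 0.05 in each (edgeR adjusted p = 0.998 in both).

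Hspa5 (BiP) was at 471, 485, 533 and 601 CPM in Homo livers and at 489, 556, 412 and 421 CPM in Het livers, against a lowest of 523, a median of 629 and a highest of 658 CPM in WT livers. Het 3 and Het 4 were the lowest of all 14, Het 1, Homo 1 and Homo 2 also lay under every WT liver, and 1 Het and 2 Homo livers lay within the WT range. Hspa5 averaged 470 ± 67.0 CPM in Het and 616 ± 52.4 CPM in WT (SD, n = 4 and 6), a fold of 0.762 (95% interval 0.656 to 0.885, log2 -0.39, SE 0.101). EdgeR gave an unadjusted p of 0.00153 and an adjusted p of 0.552, DESeq2 gave an adjusted p of 0.0584, and Hspa5 taken singly had an exact permutation p of 0.00952. In Homo it averaged 522 ± 58.4 CPM (SD, n = 4), a fold of 0.848 over WT (interval 0.730 to 0.984, edgeR unadjusted p = 0.0322, adjusted p = 0.998, exact permutation p = 0.0381).

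Creld2, an ER-resident protein induced by ER stress, had the largest fold differences among the 32 genes in both comparisons with WT. It was at 24.6, 28.2, 38.9 and 45.8 CPM in Homo livers and at 29.5, 46.6, 21.7 and 24.7 CPM in Het livers, against 35.3 to 58.4 CPM (median 51.2) in WT livers. Homo 1, Homo 2 and 3 of the 4 Het livers stood below every WT liver, and the remaining 3 lay inside the WT range. Het over WT gave a fold of 0.610 (interval 0.442 to 0.842, log2 -0.71, SE 0.218, edgeR unadjusted p = 0.00521, adjusted p = 0.844, exact permutation p = 0.00952). In Homo over WT it was 0.684 (interval 0.496 to 0.942, log2 -0.55, SE 0.217, edgeR unadjusted p = 0.0232, adjusted p = 0.998, exact permutation p = 0.0286).

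Hyou1, an Hsp110-type protein that recharges BiP with nucleotide, was at 167, 178, 217 and 206 CPM in Homo livers. In Het livers it was at 199, 214, 140 and 159 CPM, against 194 to 259 CPM (median 229) in WT livers. Homo 1, Homo 2, Het 3 and Het 4 were under the WT range, and the other 4 within it. The log2 fold change was -0.24 in Homo (SE 0.122, edgeR unadjusted p = 0.0626, adjusted p = 0.998) and -0.35 in Het (SE 0.122, unadjusted p = 0.0116, adjusted p = 0.993).

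Hsp90b1 (GRP94), the ER member of the Hsp90 family, was at 671, 686, 659 and 703 CPM in Homo livers. It was at 734, 710, 598 and 594 CPM in Het livers, against 675 to 848 CPM (median 752) in WT livers. The 4 Homo livers lay close together around the lowest WT liver, whereas the Het livers formed a pair within the WT range and a pair below it. The log2 fold change was -0.15 in Homo (SE 0.0784, edgeR unadjusted p = 0.0757, adjusted p = 0.998, exact permutation p = 0.0333) and -0.20 in Het (SE 0.0785, unadjusted p = 0.0255, adjusted p = 0.998, exact permutation p = 0.0429).

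**Figure D2:**
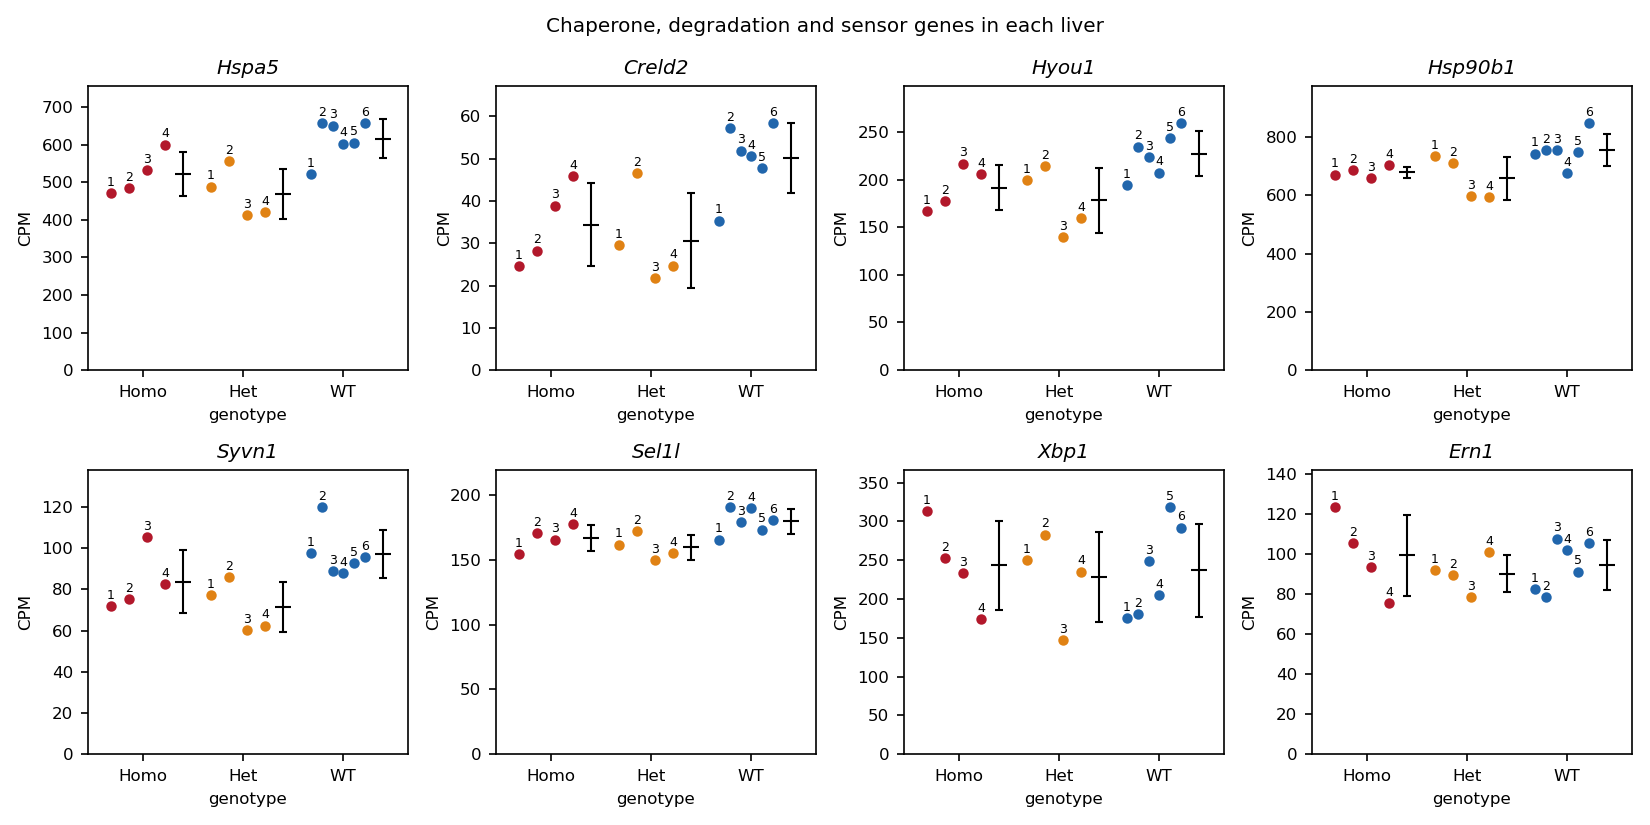
CPM of 8 genes in each liver by genotype (Homo, Het, WT), with the replicate number above each point and the group mean ± SD as a black bar (n = 4, 4 and 6). Het 3 and Het 4 are the 2 lowest livers of all 14 for Hspa5, Hyou1, Hsp90b1 and Syvn1, while Xbp1 and Ern1 spread over similar ranges in the 3 genotypes.

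Het 3 and Het 4 were also below Het 1 and Het 2 for each of the other chaperone genes except Dnajc3. Manf, a secreted ER protein that stabilises BiP with its clients, was at 88.5, 100, 67.3 and 68.5 CPM in Het, against 77.5 to 120 CPM in WT (log2 -0.35, edgeR unadjusted p = 0.0158, adjusted p = 0.998). Dnajb9 (ERdj4), a BiP cochaperone that represses IRE1, was at 69.6, 83.6, 50.8 and 59.5 CPM in Het, against 67.6 to 115 CPM in WT (log2 -0.45, edgeR unadjusted p = 0.0326, adjusted p = 0.998). Hspa13 (Stch), a microsomal Hsp70-like protein, was at 30.1, 32.9, 24.2 and 28.8 CPM in Het, against 25.6 to 49.6 CPM in WT (log2 -0.34, edgeR unadjusted p = 0.0344, adjusted p = 0.998). Each of these genes overlapped between Het and WT, and each had its lowest liver in Het 3. In Homo against WT their log2 fold changes were -0.15, -0.13 and -0.08, with edgeR unadjusted p from 0.260 to 0.588.

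Sdf2l1, a stress-induced partner of ERdj3, had log2 fold changes of -0.15 in Homo and -0.17 in Het against WT, and its lowest liver was Homo 1 at 15.8 CPM. Dnajc3 (p58IPK), a BiP cochaperone that also restrains PERK, differed by -0.08 in Homo and -0.09 in Het, and its Het livers, at 216, 243, 230 and 218 CPM, did not split that way. Calr (calreticulin), the soluble lectin chaperone, differed by -0.03 in Homo and -0.10 in Het. None of these reached an unadjusted p under 0.05. Calr and Dnajb9 each have a processed pseudogene with 92.5% and 93.3% identity over the matched stretch, with at most 66.0 counts for Calr-ps and 2.47 for Gm6568 in any library, so a small exchange of reads is possible.

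The disulfide branch holds 5 isomerases that form and rearrange disulfide bonds, and its differences were small. All 5 folds were below 1 in Homo against WT (median log2 -0.08), and 4 of 5 in Het against WT (median -0.09), none with an unadjusted p under 0.05. Pdia4 (ERp72) was at 167, 185, 188 and 191 CPM in Homo livers and at 205, 186, 158 and 164 CPM in Het livers, against 182 to 209 CPM (median 195) in WT livers. Homo 1, Het 3 and Het 4 were under the WT range and Homo 2, 3 and 4 and Het 1 and 2 inside it. The log2 fold change was -0.09 in Homo (edgeR adjusted p = 0.998) and -0.13 in Het (SE 0.0777, unadjusted p = 0.115, adjusted p = 0.998).

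Pdia3 (ERp57), which works with calnexin and calreticulin on glycoproteins, was at 294, 320, 314 and 312 CPM in Homo livers, 354, 335, 289 and 270 CPM in Het livers and 295 to 359 CPM (median 341) in WT livers. Het 1 and Het 2 were above all Homo livers, and Het 3 and Het 4 were the 2 lowest of all 14. Pdia6 (P5), which also attenuates IRE1 signalling, was at 151, 174, 167 and 149 CPM in Homo, 178, 156, 140 and 135 CPM in Het and 142 to 194 CPM (median 169) in WT. For Pdia6, Het 3 and Het 4 alone lay under the WT range, whereas for Pdia3 Homo 1 also did, narrowly. The log2 fold changes of Pdia3 were -0.10 in Homo and -0.09 in Het, and those of Pdia6 -0.08 and -0.15 (edgeR unadjusted p from 0.123 to 0.401). P4hb, the founding protein disulfide isomerase and a subunit of prolyl hydroxylase, differed by -0.01 in Homo and -0.08 in Het. Pdia5 was the one isomerase above WT in Het, by 0.02, and differed by -0.03 in Homo.

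Of the degradation branch (9 genes), all 9 folds were below 1 in Het against WT (median log2 -0.12), 2 of them with an unadjusted p under 0.05. In Homo against WT 5 of 9 were below 1 (median -0.03, but 0.02 without Homo 1 and 0.07 without WT 2), none with an unadjusted p under 0.05. Those 2 genes, Syvn1 and Sel1l, encode the partners of a single complex, the membrane ubiquitin ligase HRD1 and its scaffold.

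Syvn1 was the only member whose Het livers all lay below every WT liver, a pattern found for 0.506% of all genes, and no member showed the opposite one (0.697% of all genes). It was at 72.0, 75.3, 106 and 82.4 CPM in Homo livers and at 77.2, 85.8, 60.1 and 62.4 CPM in Het livers, against 88.0 to 120 CPM (median 94.3) in WT livers. Homo 3 stood above 5 of the 6 WT livers, and the other 3 Homo livers below all of them. Het over WT gave a fold of 0.734 (interval 0.607 to 0.888, log2 -0.45, SE 0.129, edgeR unadjusted p = 0.00355, adjusted p = 0.735). Its exact permutation p of 0.00476 is the smallest that 4 against 6 allow. In Homo over WT the fold was 0.862 (interval 0.714 to 1.04, edgeR unadjusted p = 0.115, adjusted p = 0.998).

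Sel1l was at 154, 171, 166 and 178 CPM in Homo livers and at 162, 172, 150 and 155 CPM in Het livers, against 166 to 191 CPM (median 180) in WT livers. Homo 1 and 3 of the 4 Het livers were under the WT range, and Homo 3 was level with the lowest WT liver. The log2 fold change was -0.17 in Het (SE 0.0640, edgeR unadjusted p = 0.0169, adjusted p = 0.998, exact permutation p = 0.0143) and -0.11 in Homo (SE 0.0639, unadjusted p = 0.114, adjusted p = 0.998). Selenos, a selenoprotein of the retrotranslocation machinery, was at 32.4, 38.0, 35.8 and 35.6 CPM in Homo livers, 36.4, 41.7, 32.6 and 33.8 CPM in Het livers and 36.6 to 40.2 CPM (median 38.4) in WT livers. Homo 1, 3 and 4 and Het 1, 3 and 4 lay under the WT range. Its log2 fold change in Homo was -0.12 (SE 0.0698, edgeR unadjusted p = 0.108, adjusted p = 0.998), although the exact permutation p for Selenos alone was 0.0190.

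The remaining degradation genes varied without a common direction in Homo. Edem1, a lectin that hands mannose-trimmed glycoproteins to degradation, differed by -0.07 on the log2 scale in Homo and -0.05 in Het, and its relative Edem2 by 0.12 and -0.07. The Derlins form the retrotranslocation channel with HRD1. Derl1 differed by 0.07 in Homo and less than 0.01 in size in Het (log2 -0.0048), and Derl2 by 0.13 in Homo and -0.12 in Het. Derl1 has a processed pseudogene of 95.4% identity, Gm35638, with at most 30.6 counts in any library.

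Herpud1, which acts with HRD1, ran from 216 CPM in Homo 1 to 474 CPM in Homo 4, from 219 to 431 CPM in Het and from 224 to 426 CPM in WT. Its promoter is the one with ERSE-II and the ATF4 element shown above. Derl3, a stress-inducible Derlin, was scarce, at 0.594, 3.35, 2.12 and 2.20 CPM in Homo, 2.80, 2.05, 1.08 and 0.517 CPM in Het and 1.47 to 3.54 CPM in WT. Its lowest library, Het 4, held 12 counts. Derl3 spanned a 6.85-fold range over the 14 livers, the widest of the 32, and the 95% intervals of its fold against WT were 0.523 to 1.98 in Homo and 0.405 to 1.58 in Het.

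**Figure D3:**
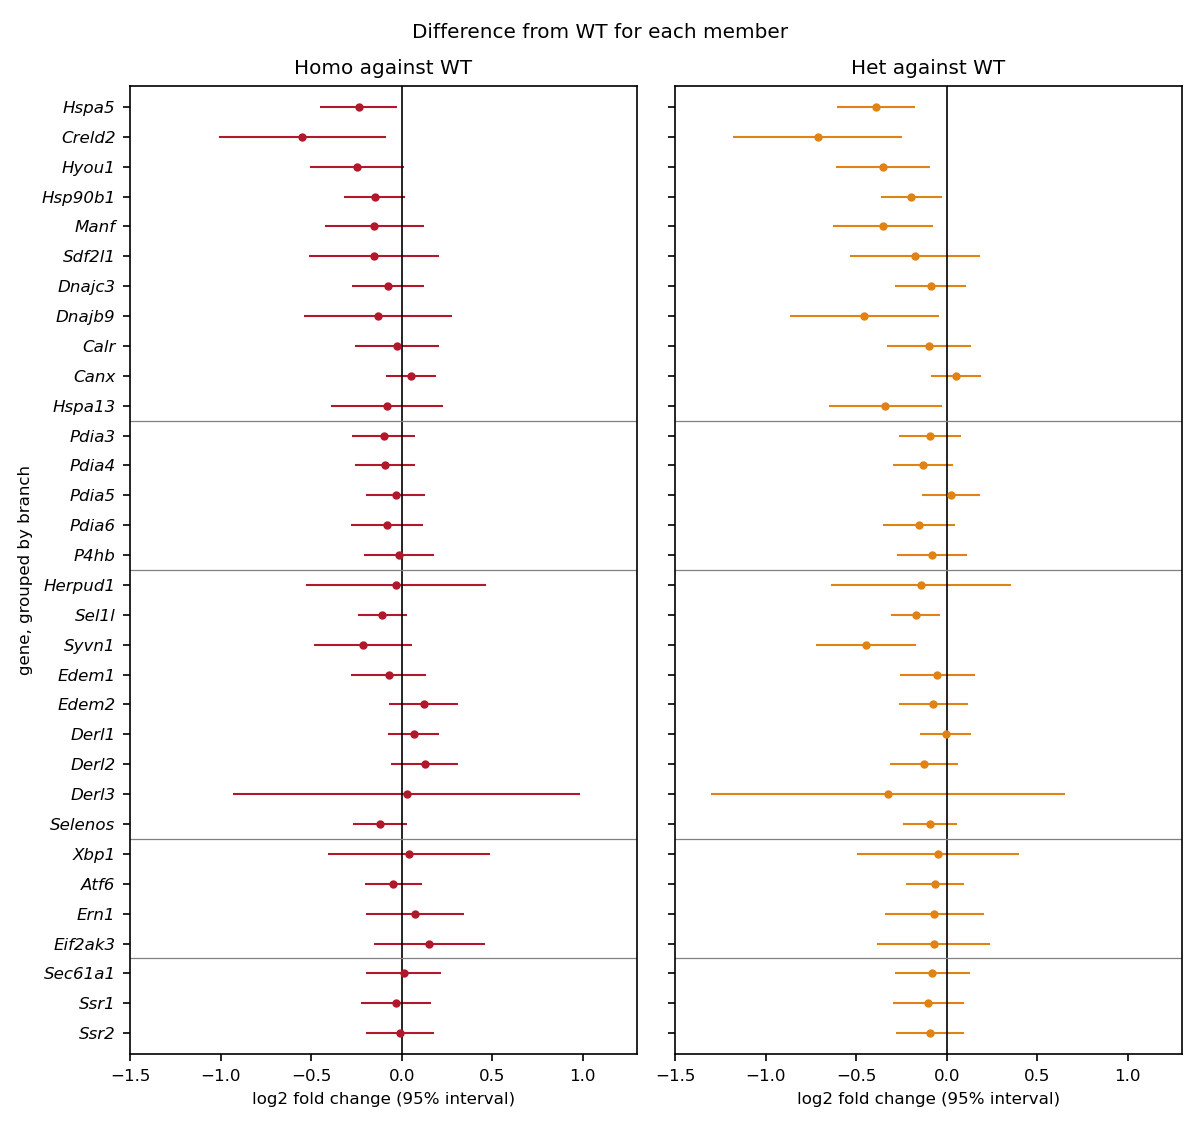
Log2 fold change of each of the 32 genes in Homo against WT (left) and Het against WT (right), with 95% intervals from the edgeR fit and genes grouped by branch. In Het, 30 of 32 points lie left of 0 and 9 intervals leave it out, while in Homo 23 of 32 lie left of 0 and 2 intervals leave it out.

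In the sensor branch (Xbp1, Atf6, Ern1 and Eif2ak3) no gene came near the threshold. Its median log2 fold change was 0.06 in Homo against WT, with 1 of 4 below 1, and -0.07 in Het against WT, with 4 of 4 below 1. When each liver was left out in turn the Homo median ran from -0.03 (without Homo 1) to 0.18 (without Homo 4), so its sign rested on single livers. The smallest unadjusted edgeR p among these was 0.307 in Homo and 0.397 in Het.

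Xbp1 was at 313, 252, 233 and 174 CPM in Homo livers and at 250, 283, 147 and 235 CPM in Het livers, against 176 to 318 CPM (median 227) in WT livers. The values spread 2.17-fold over the 14 livers and the 3 ranges overlapped almost wholly. Its fold intervals against WT, 0.754 to 1.40 in Homo and 0.708 to 1.32 in Het, take in differences as large as those of Hspa5. The sign of the Xbp1 difference turned with single livers: the log2 fold change in Homo ran from -0.11 to 0.17, and in Het from -0.17 to 0.11, when each liver was left out in turn.

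Atf6 was at 89.3, 96.3, 98.5 and 97.8 CPM in Homo, 92.2, 106, 93.3 and 85.7 CPM in Het and 89.8 to 112 CPM (median 97.2) in WT. These are close ranges, with fold intervals of 0.867 to 1.08 in Homo and 0.857 to 1.07 in Het. Ern1 (IRE1) was at 123, 105, 93.3 and 75.3 CPM in Homo, 91.8, 89.2, 78.2 and 101 CPM in Het and 78.5 to 107 CPM (median 96.4) in WT. Both its highest and its lowest liver were Homo, and the log2 fold change was 0.07 in Homo (SE 0.127) and -0.07 in Het (SE 0.128). Eif2ak3 (PERK) was at 20.3, 20.1, 20.1 and 13.9 CPM in Homo, 19.5, 16.2, 14.8 and 13.2 CPM in Het and 14.0 to 20.4 CPM (median 15.6) in WT. For Eif2ak3, 3 Homo livers sat at the top of the WT range and Homo 4 just under it (log2 0.15, SE 0.144, edgeR adjusted p = 0.998).

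The translocation genes, Sec61a1 for the channel and Ssr1 and Ssr2 for the signal-sequence receptor beside it, had medians of -0.01 for Homo against WT and -0.09 for Het against WT, with no unadjusted p under 0.05. The Homo median ran from -0.07 without WT 1 to 0.03 without WT 2. Sec61a1 was at 147, 151, 157 and 142 CPM in Homo, 157, 146, 128 and 130 CPM in Het and 115 to 169 CPM (median 154) in WT. Ssr1 was at 90.5, 89.8, 91.3 and 77.6 CPM in Homo, 90.4, 89.1, 75.5 and 77.5 CPM in Het and 76.5 to 100 CPM (median 92.7) in WT. Ssr2 was at 53.1, 51.4, 54.7 and 50.9 CPM in Homo, 51.0, 50.5, 47.4 and 49.5 CPM in Het and 40.1 to 61.4 CPM (median 54.4) in WT. For all 3 genes the lowest WT liver was WT 1, and the groups overlapped. The signs in Homo were not stable: with library totals alone as the scale, Ssr1 and Ssr2 were above WT by 0.01 and 0.03. Sec61a1 shares a stretch of full identity with the antisense gene Gm44170, which had at most 3 counts in any library.

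In the direct comparison of Homo against Het, 27 of 32 folds were above 1, against a background in which 49.5% of all genes were below 1, with a median log2 fold change of 0.08 (0.14 with library totals alone as the scale, where the median of all genes was 0.07). Branch medians were 0.11 for chaperones, 0.04 for isomerases, 0.11 for degradation genes, 0.12 for sensors and 0.08 for translocation genes, and all of them moved with single livers. With each liver left out in turn, the median over the 32 genes ran from 0.03 (without Het 3) to 0.13 (without Het 1), and that of the chaperones from 0.02 (without Het 3) to 0.21 (without Het 2). The isomerase median ran from -0.02 to 0.11, the degradation median from 0.06 to 0.16, the sensor median from 0.04 to 0.24 and the translocation median from 0.05 to 0.12. Derl2 alone had an unadjusted p under 0.05, at 82.7, 64.2, 72.4 and 60.9 CPM in Homo and 64.4, 56.8, 51.5 and 63.0 CPM in Het (log2 0.25, SE 0.0968, edgeR unadjusted p = 0.0209, adjusted p = 0.916, exact permutation p = 0.143). The count of 1 became 0 without Homo 1 or Het 3, 2 without Het 1 or WT 4, 3 without Homo 4 and 4 without Het 2. With all livers it is 3.12% of members, against 2.73% of all genes, and no member was below Het at that threshold (2.38% of all genes). For no member did all Homo livers lie below all Het livers (1.52% of all genes) or above them (1.42%). The fold of Hspa5 in Homo over Het was 1.11 (interval 0.946 to 1.31), that of Creld2 1.12 (0.792 to 1.59) and that of Syvn1 1.17 (0.955 to 1.44). All 3 intervals include 1.

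Levels over the 32 genes also varied between livers of a single genotype. Relative to the mean of the 6 WT livers, the median over the 32 genes was -0.12, -0.04, 0.01 and -0.10 in Homo 1 to 4 (log2 CPM). In Het 1 to 4 it was -0.03, -0.04, -0.26 and -0.23, and in WT 1 to 6 it was -0.18, 0.07, 0.03, -0.12, 0.04 and 0.12. Het 3 and Het 4 were therefore the 2 lowest, WT 1 came next, and Het 1 and Het 2 lay among the WT livers. In Het 3 and in Het 4, 28 of 32 genes were below the WT mean, as they were in WT 1. Of all 16201 genes tested, 7835 were below it in Het 3, 7724 in Het 4 and 7952 in WT 1.

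By gene, Het 3 was the lowest of all 14 livers for 12 members, Het 4 for 7 and WT 1 for 6, while WT 6 was the highest for 12. Het 3 and Het 4 both lay under every WT liver for 14 of 32 genes, among them 7 of the 11 chaperones and 3 of the 5 isomerases but none of the sensors or translocation genes. They both lay below Het 1 and Het 2 for 24 of 32 genes and for 10 of the 11 chaperones. Het 1 and Het 2 both fell within the WT range for 23 of 32. The share of all genes was not computed for these counts by liver, and Het 3 and Het 4 were singled out from these same values. The summed share of all counts that came from the 32 genes was 0.506% in Het 3 and 0.517% in Het 4, against 0.590% to 0.608% in the other Het livers, 0.589% to 0.620% in Homo and 0.563% to 0.671% in WT.

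Some marker lists of liver cells divided the Het livers into the same pairs, some with Het 3 and Het 4 higher and others with them lower. Relative to the WT mean, the median of 10 stellate cell markers was 0.01 to 0.08 in Homo livers and -0.03, -0.20, 0.22 and 0.24 in Het 1 to 4 (log2 CPM), against -0.15 to 0.14 in WT livers. The median of 7 tested cholangiocyte markers was -0.12 to -0.03 in Homo livers and -0.19, -0.06, 0.21 and 0.23 in Het 1 to 4, against -0.55 to 0.26 in WT livers. Hepatocyte markers split the same way, at -0.04, -0.09, 0.21 and 0.0025 in Het 1 to 4, as did sinusoidal endothelium (0.0051, 0.02, 0.21 and 0.04). Lymphocyte markers went the other way, at 0.49, 0.16, -0.12 and -0.69, as did plasma cell markers (-0.31, 0.27, -0.40 and -0.33). Some of these gaps were very small, as between Het 1 and Het 4 for plasma cell markers. Kupffer cell markers did not divide into these pairs (0.25, -0.06, 0.07 and -0.09). Nor did 5 tested erythroid markers (0.0024, 0.08, 0.40 and -0.37) or 2 tested pancreas acinar markers (0.03, 0.48, -0.06 and 0.25). How often a list of genes divides the Het livers into these pairs was not computed. The part of any of these lists in the values of the 32 genes was not tested.

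The count of members with an unadjusted p under 0.05 in Het against WT, 9, was 3 without Het 3 and 5 without Het 4, and ran from 7 to 11 when any other liver was left out. It was 4 over the 12 livers numbered 1 to 4, which leave out WT 5 and WT 6. The median log2 fold change over the 32 genes, -0.10, was -0.17 without Het 1, -0.07 without Het 3 and -0.07 without Het 4. In Homo against WT, where the median was -0.06, the count of 2 went to 0 without Homo 1 or without Homo 2. It was 4 without Homo 3, 3 without WT 1, WT 4, Het 2 or Het 3, and 1 without WT 2, WT 3 or WT 6. Over the 12 livers numbered 1 to 4 it was 0, with 17 of 32 below 1 and a median of -0.015. The median was -0.03 without WT 6. With library totals alone as the scale, 18 of 32 were below 1 in Homo and the median was -0.02, where the median of all genes was 0.04.

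**Figure D4:**
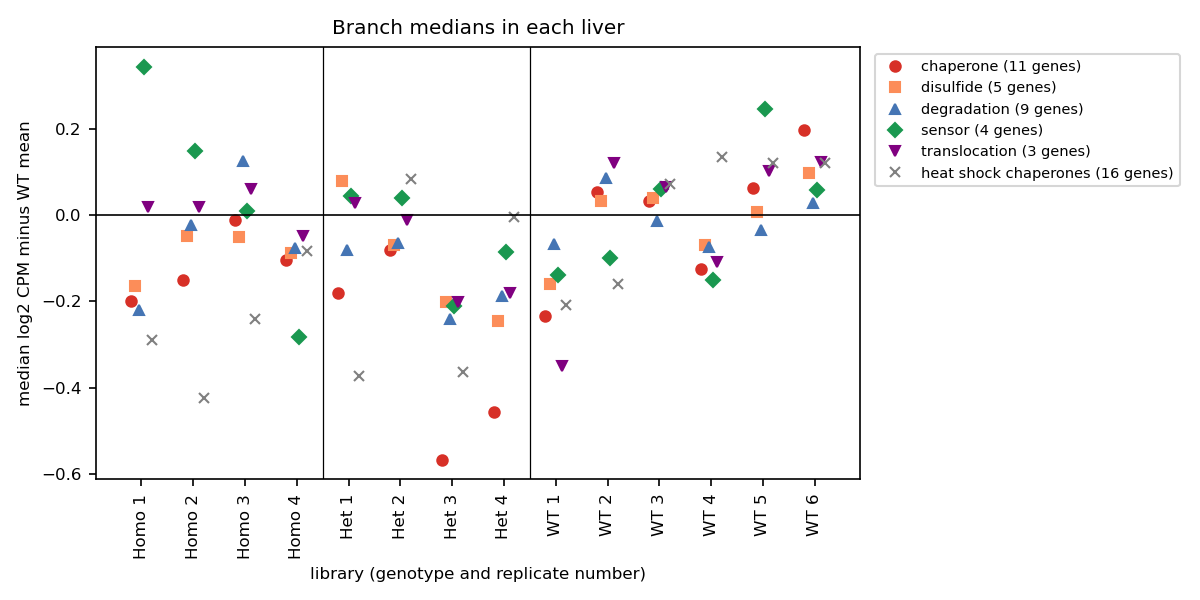
Median log2 CPM minus the WT mean for each branch (coloured symbols) and for 16 heat shock genes acting outside the ER (grey crosses). Livers are Homo, Het and WT from left to right. The chaperone median is -0.57 in Het 3 and -0.46 in Het 4, against -0.18 and -0.08 in Het 1 and Het 2 and -0.23 to 0.20 in the WT livers, and the crosses are at -0.36 in Het 3 and at 0.08 in Het 2.

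Within groups, the members' spread was below the median over all genes, which were not matched for level. The median coefficient of variation of the 32 genes was 9.05% in Homo, 11.5% in Het and 11.0% in WT, against 15.2%, 15.3% and 16.1% over all genes tested in Homo, Het and WT. The widest ranges over all 14 livers after Derl3 were those of Creld2 (2.70-fold), Dnajb9 (2.32-fold), Herpud1 (2.19-fold) and Xbp1.

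By promoter element, the 10 genes with ERSE or ERSE-II had a median log2 fold change of -0.17 in Het against WT (9 of 10 below 1) and -0.08 in Homo against WT (8 of 10). The 15 genes whose window held neither had medians of -0.09 in Het (14 of 15 below 1) and -0.03 in Homo (10 of 15). The 7 genes without a window had medians of -0.09 in Het and -0.05 in Homo. Genes with the element ranged from -0.71 (Creld2) to 0.05 (Canx) in Het, so the ranges of the first 2 sets overlapped. Sel1l and Dnajb9, both among the 9 genes above, held no ERSE letters in this window. Element and branch were not separated. The set with the element holds the chaperone genes Hspa5, Creld2, Hsp90b1, Dnajc3, Calr and Canx, and the set without it only Sdf2l1 and Dnajb9.

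The rest of the pathway was represented by 69 further genes, of which 68 were tested and 1, Pdia2, had no counts in any library. None of the 68 passed the adjusted threshold in either comparison with WT by edgeR. Folds were below 1 for 42 of 68 in Homo (median log2 -0.02), against 49.4% of all genes, and for 43 of 68 in Het (median -0.03), against 50%. At an unadjusted p under 0.05, 1 of 68 was below WT in Homo, against 2.09% of all genes. In Het 5 of 68 were below WT, against 2.31% of all genes, and 1 was above, against 2.36%. Those 5 were Ero1b, the oxidase that recharges disulfide isomerases, Ubxn4, an adaptor of the p97 ATPase, Sec61g of the channel, Spcs2 of signal peptidase and Ostc of the oligosaccharyltransferase.

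Ero1b was at 70.5, 73.1, 81.8 and 73.1 CPM in Homo livers and at 79.3, 72.2, 53.2 and 57.4 CPM in Het livers, against 70.8 to 91.0 CPM in WT livers (log2 -0.34 in Het, edgeR unadjusted p = 0.00612, adjusted p = 0.892). Het 3 and Het 4 were again the 2 lowest of all 14. Nploc4, a p97 cofactor, was the gene of Homo against WT, at 58.3 ± 5.04 CPM in Homo, 64.4 ± 4.24 CPM in Het and 65.7 ± 3.99 CPM in WT (SD, n = 4, 4 and 6, log2 -0.17 in Homo, edgeR unadjusted p = 0.0289, adjusted p = 0.998). Fkbp2, a prolyl isomerase, was at 67.2 ± 4.07 CPM in Homo and 75.0 ± 8.36 CPM in WT, whereas Ppib, the prolyl isomerase cyclophilin B, was at 189 ± 1.65 CPM in Homo and 170 ± 20.1 CPM in WT. Sec11a of signal peptidase was at 31.3 ± 3.04 CPM in Homo and 35.4 ± 4.53 CPM in WT. Mbtps1, the protease that makes the first cut in ATF6, was at 46.8 ± 2.00 CPM in Homo and 43.5 ± 2.18 CPM in WT, and Creb3l3, a hepatocyte factor cut in the same way, at 197 ± 20.4 CPM and 210 ± 8.31 CPM in these groups. None of these last 5 had an unadjusted p under 0.05.

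The 12 listed genes of the PERK and ATF4 arm, Atf4 and Eif2s1 among them, had medians of 0.05 in Homo and 0.00 in Het against WT (0.0045 before rounding). In Homo 5 of 12 were below 1 and in Het 6 of 12, against 49.4% and 50% of all genes. Asns, asparagine synthetase, was the gene above WT in Het, at 1.09, 1.77, 3.78 and 2.07 CPM in Het 1 to 4, against a mean of 1.22 ± 0.305 CPM in WT (SD, n = 6, log2 0.84, edgeR unadjusted p = 0.0237, adjusted p = 0.998). Its highest liver was Het 3. The largest difference of the list in Het was downward, in Trib3 (log2 -1.10, unadjusted edgeR p not under 0.05). Trib3 was at 1.25, 0.227, 1.19 and 0.086 CPM in Het 1 to 4, against 0.694 to 2.68 CPM in WT, and held 2 counts in Het 4. Atf4 itself was at 49.0 ± 3.27 CPM in Homo, 51.4 ± 8.76 CPM in Het and 48.9 ± 6.74 CPM in WT. Ddit3, which encodes the stress factor CHOP, was at 2.94 ± 0.267 CPM in Homo, 3.49 ± 0.851 CPM in Het and 3.51 ± 0.875 CPM in WT. Nupr1, a stress-induced cofactor, was below 1.00 CPM on average in each genotype.

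Among markers of cells other than hepatocytes, 3 collagen genes of the stellate cell list and the T cell gene Cd3e had all Het livers above all WT livers. That pattern was found for 0.697% of all genes. Col1a1 was at 13.3 to 17.7 CPM in Homo and 17.5 to 25.0 CPM in Het, against 11.2 to 16.0 CPM in WT (Het over WT fold 1.58, edgeR unadjusted p = 8.72e-05, adjusted p = 0.0925). Col1a2 (edgeR adjusted p = 0.0949) and Col3a1 (edgeR adjusted p = 0.462) also missed the adjusted threshold. Of the 10 stellate cell markers, 7 had folds above 1 in Het against WT and 3 below, down to log2 -0.31. The 10 stellate cell markers summed to 448 to 474 CPM in Homo, 388 to 536 CPM in Het and 385 to 499 CPM in WT. Cd3e was at 15.5 to 23.3 CPM in Homo and 15.5 to 18.8 CPM in Het, against 3.93 to 14.2 CPM in WT, and it made up most of the sum of 8 lymphocyte markers (18.1 to 26.0 CPM in Homo, 17.9 to 20.4 CPM in Het, 6.99 to 15.6 CPM in WT). Cd3d, Cd2, Ms4a1 and Nkg7 of that list did not pass the low-count filter. Of the 4 lymphocyte markers that could be tested, 3 were above WT in Homo and 2 in Het, so the list as a whole had no common direction in Het. Plasma cells, which carry very high levels of this machinery, had 7 markers summing to 95.0 to 137 CPM in Homo, 99.3 to 119 CPM in Het and 84.5 to 119 CPM in WT, of which Sdc1, also made by hepatocytes, gave most. Their more specific Jchain averaged 1.33 CPM in Homo, 0.851 CPM in Het and 1.36 CPM in WT. The 10 Kupffer cell markers summed to 295 to 318 CPM in Homo, 255 to 314 CPM in Het and 255 to 299 CPM in WT. The part of these cells in the values of the 32 genes was not tested.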

How the data were processed

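Per the labels' protocols, Trizol and RNeasy columns were used for the RNA of the 14 mouse livers and the NuGen Ovation kit for the mouse libraries. The authors deposited a table of estimated counts per Ensembl gene, for which the submitters' processing notes list STAR, Salmon and GRCm39. The sources used here do not give tool versions, annotation release or strandedness. Between 6.36% and 8.59% of values per library were not whole (tolerance 0.01), and all were rounded.

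Genes were kept with filterByExpr (count minimum 10, total minimum 15), scaled with TMM and fitted over all 14 libraries with the quasi-likelihood test of edgeR 4.0.16 (R 4.3.3, two-sided). P-values were adjusted with Benjamini-Hochberg over the 16201 genes tested, at a threshold of 0.05. Intervals are at 95%. Single genes were also compared by exact two-sided permutation of log2 CPM (prior count 2), for which 4 against 6 allow no p below 0.00476 and 4 against 4 none below 0.0286. The fit was tested on simulated data. The members, the branches (translocation was added to the 4 of the original grouping) and the other lists were chosen with earlier results of these data known. Values in every liver are given for Hspa5, Creld2, Hyou1, Hsp90b1, the 4 sensors and the 2 genes per branch with the smallest p in Homo and in Het against WT. From each other pathway list come the 2 genes of smallest p in Homo against WT. Other genes and values were picked after they were seen.

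Alternatives were DESeq2 1.42.0 (size factors, and its Wald test), library totals alone, no filter, the compared groups only, the replicate number as a block and leaving out each library. The closest pair of libraries differed far beyond sampling noise (a chi-square of 23.7 per degree of freedom). Chromosomes came from GENCODE M21 (GRCm38) and similar transcripts from BLAST 2.17.0, without coordinates of the deposited build.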

Additional observations from a re-analysis of the deposited data

Results flagged for a closer look

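Of 96 sets of 1 gene in 1 genotype, 5 held a liver that stood far from the rest of its group by Dixon's criterion, and chance alone flags about 1 in 20. Homo 4 was the low liver of its group for 3 genes. P4hb, protein disulfide isomerase, was at 621 CPM there (620.69), against 756 to 762 CPM in the other Homo livers. Eif2ak3 (PERK) was at 13.9 CPM (13.89) in Homo 4, against 20.1 to 20.3 CPM, and Ssr1 at 77.6 CPM (77.628), against 89.8 to 91.3 CPM. In these 3 genes the other Homo livers lay close to each other, and Homo 4 was within or just under the WT range. WT 2 was the high liver of its group for 2 degradation genes, Syvn1 at 120 CPM (120.03), against 88.0 to 97.8 CPM in the other WT livers, and Derl3 at 3.54 CPM (3.5398), against 1.47 to 2.04 CPM.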

How the results depend on the processing

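In each of the 21 alternatives run, 0 of the 32 members passed the adjusted threshold in any of the 3 comparisons. Genes called over the whole table in Homo against WT numbered 36, against 61 with DESeq2's Wald test, 20 with the replicate block and 22 in the same 12 libraries without a block (this last setting was added after seeing the data), and 23 to 40 when 1 library was left out. In Het against WT they numbered 9, against 23 without the filter and 32 with DESeq2. In Homo against Het they numbered 5, against 16 with DESeq2 and 2 either with those groups alone or with the block.

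The replicate numbers did not pair the livers. The correlation of deviations between same-numbered livers ran from -0.09 to 0.15, with 2 of 12 over 0.1, so the blocked fit shows no more than a refit of fewer libraries.

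Small differences changed sign, and the cause was not tested. With library totals alone, log2 fold changes in Homo against WT were 0.0131 for Ssr1 and 0.0307 for Ssr2, and in Homo against Het 0.0554 for Pdia3 and 0.0379 for Selenos. With the block they were 0.0452 for Ssr1 and 0.0201 for Ssr2 in Homo against WT and 0.1476 for Xbp1 in Het against WT, and in the same libraries without it 0.0447, 0.0105 and 0.1731. Leaving out 1 library gave these ranges in Homo against WT: Xbp1 -0.1061 to 0.1699, Ern1 -0.0482 to 0.1858, Sec61a1 -0.0523 to 0.0523, Ssr1 -0.0717 to 0.0221 and Ssr2 -0.0782 to 0.0371. In Het against WT they were -0.1682 to 0.1136 for Xbp1 and -0.1886 to 0.009 for Eif2ak3. In Homo against Het they were -0.0023 to 0.4403 for Creld2, -0.0018 to 0.1032 for Hsp90b1, -0.0705 to 0.0616 for Pdia3, -0.0155 to 0.1128 for Pdia4, -0.0725 to 0.0494 for Selenos, -0.0738 to 0.2192 for Xbp1 and -0.0257 to 0.079 for Atf6. Branch medians that turned sign in Homo against WT were degradation (0.02 without Homo 1, 0.07 without WT 2), sensor (-0.03 without Homo 1, -0.0014 without WT 2) and translocation (0.03 with library totals alone, 0.05 with the block, 0.04 in those libraries without it, and 0.0021 to 0.03 without Homo 4, WT 2, WT 3, WT 5 or WT 6). In Homo against Het it was the isomerase median (-0.02 without Het 3). The median over all 32 genes kept its sign in each comparison and alternative.

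The labels give no litter, sex, age or batch, so these could not be fitted. With 4 livers in Homo and in Het, single livers weigh heavily, and the printed intervals give the range of folds that the values allow.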

Other observations

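Heat shock chaperones outside the ER, which answer to HSF1 and not to the ER sensors, shared some low livers with the ER chaperones and not others. Most of those listed are cytosolic, while Hspd1 and Hspe1 are mitochondrial. Of 16 such genes, 15 were below 1 in Homo against WT (median log2 -0.25, 6 at an unadjusted edgeR p under 0.05). In Het against WT 13 were below 1 (median -0.08, 1 at that threshold), and none passed the adjusted threshold in either comparison. Of all genes tested, 49.4% were below 1 in Homo and 50% in Het. The shares of all genes that were lower at that unadjusted threshold were 2.09% in Homo and 2.31% in Het. Relative to the WT mean their median was -0.29, -0.42, -0.24 and -0.08 in Homo 1 to 4, -0.37, 0.08, -0.36 and -0.0043 in Het 1 to 4 and -0.21, -0.16, 0.07, 0.14, 0.12 and 0.12 in WT 1 to 6. Het 3, WT 1, Homo 1 and Het 1 were low for both sets, with ER chaperone medians of -0.57, -0.23, -0.20 and -0.18. Het 4, with an ER chaperone median of -0.46, was at the WT mean for the heat shock genes. Homo 2, at -0.15 for ER chaperones, had the lowest heat shock median of all 14 livers. Of 13 tested circadian clock genes, none had an unadjusted edgeR p under 0.05 in Homo or in Het against WT, nor did any pass the adjusted threshold.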
